A study of Saccharomyces cerevisiae with 73 samples.

Results

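Budding yeast makes serine, glycine, homoserine and threonine with enzymes encoded by SER3, SER33, SER1, SER2, SHM2, GLY1, HOM3, HOM2, THR1 and THR4. These 10 genes were chosen by symbol, as members of the connected synthesis routes, out of 5538 genes measured, and each was read by 1 probe. In dextrose media without amino acids, SER3, SER33, SER1, SHM2, HOM3 and HOM2 transcripts stood above those in the medium with all amino acids, GLY1 transcripts stood below them, and SER2, THR1 and THR4 did not pass the test. The paralogs SER3 and SER33 parted in a dextrose medium that supplied only the amino acids LIVWHM, where SER3 stayed high and SER33 was near its level before the shift.

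Serine is made from the glycolytic intermediate 3-phosphoglycerate. SER3 (YER081W) and SER33 (YIL074C) encode isozymes of 3-phosphoglycerate dehydrogenase, the first step, SER1 (YOR184W) encodes phosphoserine aminotransferase, and SER2 (YGR208W) encodes the phosphatase of the last step. SHM2 (YLR058C) encodes cytosolic serine hydroxymethyltransferase, which interconverts serine and glycine and loads folate with carbon units. GLY1 (YEL046C) encodes threonine aldolase, which splits threonine into glycine and acetaldehyde. HOM3 (YER052C), aspartate kinase, and HOM2 (YDR158W), aspartic semialdehyde dehydrogenase, catalyse the opening steps from aspartate towards homoserine, the branch point between threonine and methionine. THR1 (YHR025W), homoserine kinase, and THR4 (YCR053W), threonine synthase, complete threonine.

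All cultures, the t = 0 cells included, were of the MATalpha strain KCN118, which has the S288C background and carries ade2. Cells grown in complete dextrose medium with inositol were filtered, washed and placed in 1 of 13 media, and polyA RNA taken 15, 30, 60, 120 and 240 min later (Cy5) was hybridised against RNA taken before the transfer (t = 0, labelled with Cy3). The 4 ethanol media were SEtOH and SEtOH+ino (no amino acids) and SEtOH+aa and SEtOH+aa+ino (all amino acids), and the 4 galactose media were Sgal and Sgal+ino (none) and Sgal+aa and Sgal+aa+ino (all). The 5 dextrose media were 1 with the amino acids LIVWHM and inositol, 1 with ARNCQGKPSDEFTY and inositol (both in letter code), SD and SD+ino (none), and SD+aa (all, without inositol). Each medium was a single culture, so tests rest on the spread between cultures of different media, and the classes with 1 culture (LIVWHM, ARNCQGKPSDEFTY and SD+aa) borrow their spread from the other classes.

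Values are log2 ratios of shifted over t = 0 cells, and the deposited table was taken to be on a log10 scale. Its base, direction and normalization were not given in the sources used here. If the base was 2, each log2 value below would be 3.32 times smaller, with directions and tests unchanged. If the table held t = 0 over shifted cells, every sign, rank and fold below, and each share of genes that were higher, would be turned, with the sizes of log2 differences and the tests unchanged. The study's text lists the amino acids missing from the LIVWHM medium without D, E and Y, so whether that medium held these was not settled. There were 73 arrays listed for 65 combinations of culture and time, with 4954 to 6254 probes measured per array. A second array, called a repeat array here, was listed for 8 combinations. In 2 of these, from SD+ino and Sgal+ino, it carried the same technical replicate number as the first and the unexplained note ojgrid. Whether these 2 were separate hybridisations was not settled. Over the members the repeats differed by a median of 0.06 log2 units in 77 pairs with both values, and at most by 0.42 (HOM2). Every member had a pair that differed by 0.0014 or less. Pairs holding nearly the same data would lower the median of 0.06, so it may understate the spread between arrays. All 10 members passed the filter on missing values, and none had a value at the limit of the table. The label checks were mixed. GAL1, the galactokinase gene, averaged 1.17 ± 0.30 in galactose cultures against 0.98 ± 0.13 in ethanol cultures (SD, n = 4 each), and the culture means overlapped. GAL10 averaged -0.10 ± 0.26 in galactose cultures (SD, n = 4). GAL7 averaged 1.78 ± 0.45 in galactose cultures against 2.09 ± 0.26 in ethanol cultures (SD, n = 4 each). INO1, the inositol synthesis gene, averaged 1.45 in Sgal against 0.98 in Sgal+ino and 1.65 in Sgal+aa against 1.03 in Sgal+aa+ino. At 120 min it measured 2.75 in Sgal against 1.38 in Sgal+ino. It averaged 0.67 in SEtOH against 0.75 in SEtOH+ino, and 0.21 in SD against -0.02 in SD+ino. ADE2, the gene carrying the strain's mutation, averaged 1.92 ± 0.40 in SD and SD+ino (SD, n = 2).

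Amino acid removal in dextrose was the comparison of SD and SD+ino with SD+aa, on the mean over the 5 times and adjusted for inositol. Of the 10 members, 6 rose and 1 fell, where 26.8% of the 5164 genes tested passed at an adjusted p below 0.05 (limma, Benjamini-Hochberg over all genes). The median difference was 1.02 over the members and 0.03 over all genes tested.

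The dehydrogenase isozymes had the largest values of the 10 members in this comparison. SER33 measured 3.91, 4.10, 2.59, 2.20 and 1.69 in SD and 4.45, 3.82, 2.15, 1.77 and 1.68 in SD+ino at 15, 30, 60, 120 and 240 min, against -0.19, -0.60, -0.07, -0.45 and -0.22 in SD+aa. The highest of these, in SD+ino at 15 min, was a 21.8-fold level relative to t = 0, and at no time did the media without amino acids overlap SD+aa. The difference was 3.19 ± 0.17 (SE, adjusted p = 6.11e-07). SER3 measured 2.87, 2.06, 2.37, 2.02 and 2.01 in SD and 3.46, 2.96, 3.08, 2.82 and 2.60 in SD+ino at the same times, against 0.85, -0.00, 0.03, -0.21 and 0.01 in SD+aa. It too was above SD+aa at all 5 times, with a difference of 2.32 ± 0.21 (adjusted p = 1.82e-05).

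SER33 was highest within 30 min and lower from 60 min on, while SER3 kept a more even level over the 4 hours. Between 15 and 240 min in SD and SD+ino, SER33 fell by 2.50 ± 0.17 log2 units (adjusted p = 1.75e-05) and SER3 by 0.86 ± 0.14 (adjusted p = 0.00126). Both changes depended on the scaling of the arrays. After quantile normalization the change was -0.45 for SER33, with an adjusted p of 0.055, and 1.17 for SER3, with the sign turned.

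SER1 measured 1.63, 1.92, 1.62, 1.14 and 0.69 in SD and 2.12, 2.11, 1.34, 1.19 and 0.96 in SD+ino, against 0.20, 0.05, -0.17, -0.20 and -0.02 in SD+aa. It rose by 1.50 ± 0.19 (adjusted p = 0.000132). SER2, which encodes the last enzyme of the same route, ran from -0.85 to 0.48 in SD and SD+ino and from -0.45 to 0.30 in SD+aa, and the ranges overlapped. Its difference was 0.07, with a 95% confidence interval of -0.35 to 0.49 (adjusted p = 0.835).

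The glycine genes moved in opposite directions. SHM2 measured 2.21, 3.04, 3.02, 2.34 and 1.38 in SD and 2.57, 3.17, 1.71, 1.91 and 1.39 in SD+ino, against 0.04, 0.72, 0.26, 0.06 and 0.08 in SD+aa, a rise of 2.07 ± 0.19 (adjusted p = 1.59e-05). GLY1 measured -1.35, -1.71, -1.25, -0.81 and -0.75 in SD and -1.41, -1.61, -1.07, -0.59 and -0.85 in SD+ino, against -0.57, -0.49, -0.04, 0.04 and 0.00 in SD+aa. At every time both cultures without amino acids lay below SD+aa, and GLY1 fell by 0.97 ± 0.19 (adjusted p = 0.00244).

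In the route from aspartate the opening steps rose and the threonine steps did not pass the test. HOM3 measured 2.25, 1.17, 1.03, 0.91 and 0.78 in SD and 2.37, 0.67, 1.19, 0.99 and 1.18 in SD+ino, against -0.03 to 0.13 in SD+aa, and its difference was 1.15 ± 0.19 (adjusted p = 0.000799). HOM2 ran from 0.25 to 0.99 in SD and from 0.65 to 1.34 in SD+ino, against -0.37 to 0.04 in SD+aa, and its difference was 0.89 ± 0.19 (adjusted p = 0.00491). THR1 had a difference of -0.06 (95% confidence interval -0.63 to 0.51) and THR4 one of -0.23 (-0.63 to 0.18). The result for THR1 depended on the scaling of the arrays. After quantile normalization THR1 was 0.89 and passed in limma (adjusted p = 0.0133), while THR4 was 0.16 (adjusted p = 0.479). The 2 cultures without amino acids differed for THR1, with a mean of -0.72 in SD and -0.05 in SD+ino, and without SD the difference was 0.34 (adjusted p = 0.424).

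**Figure D1:**
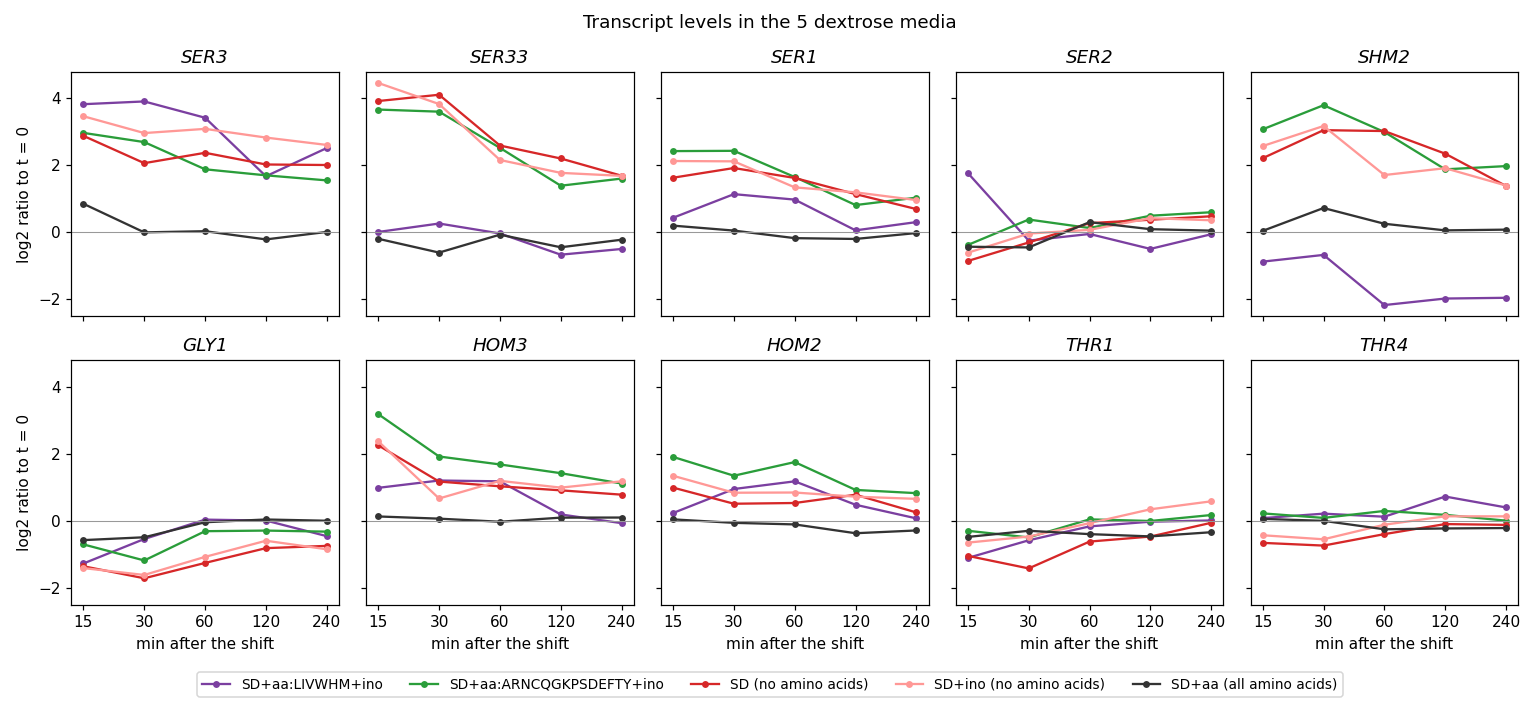
Log2 ratios to t = 0 (y axis) at 15, 30, 60, 120 and 240 min after the shift (x axis, evenly spaced) for the 10 genes in the 5 dextrose media, 1 culture each, with repeat arrays averaged. SER3 is high in the 4 media that lack some or all amino acids, whereas SER33 and SHM2 are high in SD, SD+ino and ARNCQGKPSDEFTY and not in LIVWHM, and the SER2 point at 15 min in LIVWHM stands at 1.77.

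The contrast with SD+aa was also fitted at single times. At 15 min alone, 6 members rose and 2 fell, with 55.2% of all genes tested passing. THR4 was the further member that fell at 15 min, by 0.61 (adjusted p = 0.0079). After quantile normalization 4 members and 18.9% of all genes tested passed at 15 min. The calls of THR4 (-0.57, adjusted p = 0.125), SER3 (0.34, adjusted p = 0.399) and HOM2 (0.75, adjusted p = 0.0827) were lost there, and GLY1 was 0.21, with the sign turned. At 240 min alone, SER3 (2.14 ± 0.28) and SER33 (2.03 ± 0.32) were the only members that passed, where 0.739% of all genes tested passed. Quantile normalization turned the order of the 2 times, with 8 members and 24.2% of all genes tested passing at 240 min. Without SD neither passed at 240 min, at 2.36 for SER3 (adjusted p = 0.0549) and 2.21 for SER33 (adjusted p = 0.104), and the same held without SD+ino, at 1.99 and 1.91 (adjusted p = 0.0756 and 0.156). SER33 also missed the threshold without SEtOH or SEtOH+ino (2.02, adjusted p = 0.0788). On the mean of 120 and 240 min the calls of SER1, GLY1, HOM3 and HOM2 were lost, at 1.08, -0.85, 0.81 and 0.91.

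Relative to t = 0 itself, SD and SD+ino had 6 members higher and 3 lower on the mean over times, where 55.8% of all genes tested passed. The higher ones were SER3 (2.63 ± 0.12), SER33 (2.84 ± 0.10), SER1, SHM2, HOM3 and HOM2, and the lower ones GLY1 (-1.14 ± 0.11), THR1 (-0.39 ± 0.15) and THR4 (-0.28 ± 0.10). With no dye swap, a dye effect would add to these values and to those against t = 0 in ethanol and galactose below. The tests against t = 0 do not measure it, nor an error in t = 0 RNA that cultures share. The calls of THR1 and THR4 were close to the threshold. Without SD the value of THR1 was -0.05 (adjusted p = 0.846) and that of THR4 -0.22 (adjusted p = 0.29), THR1 also missed the threshold without Sgal or Sgal+ino (adjusted p = 0.0509), and THR4 without SD+ino or any 1 ethanol culture (highest adjusted p = 0.111). Between 15 and 240 min in these cultures 3 members rose and 6 fell, with 53.1% of all genes tested passing. SER2 (1.15 ± 0.20), THR1 (1.11 ± 0.22) and THR4 (0.55 ± 0.15) were the ones that rose. Without SD 3 of these 9 calls were left, those of SER3, SER33 and SER1. Quantile normalization turned the sign of 5 of the 6 falls, at 1.17 for SER3 (adjusted p = 0.000302), 0.65 for SHM2 (adjusted p = 0.00871), 0.23 for SER1, 0.14 for HOM3 and 0.088 for HOM2. The median of the members was then 0.36, and -0.79 without it.

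The partial amino acid media separated the members further. In LIVWHM, compared with SD and SD+ino, 0 members rose and 3 fell, where 7.24% of all genes tested passed. These were SHM2 (-3.77 ± 0.19, adjusted p = 1.21e-07), SER33 (-2.97 ± 0.17, adjusted p = 6.18e-07) and SER1 (-0.89 ± 0.19, adjusted p = 0.0111). LIVWHM was 1 culture against 2. A fit in which carbon source, amino acid supply and inositol act additively kept the call of SHM2 and not those of SER33 (-2.49, adjusted p = 0.192) and SER1 (-0.67, adjusted p = 0.603). Without SD+ino SER1 was -0.79 (adjusted p = 0.13).

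SHM2 measured -0.87, -0.67, -2.17, -1.97 and -1.95 in LIVWHM over the 5 times, all below t = 0, whereas SD and SD+ino were all above it, at 1.38 or more. Its lowest value, at 60 min, was a 0.223-fold level relative to t = 0. SER33 measured 0.01, 0.26, -0.03, -0.67 and -0.50 in LIVWHM, close to its values in SD+aa. SER1 measured 0.43, 1.14, 0.97, 0.06 and 0.30 in LIVWHM, between SD+aa and the media without amino acids at each of the 5 times.

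SER3 measured 3.82, 3.90, 3.41, 1.67 and 2.51 in LIVWHM, the highest of the 13 media until 60 min. Its difference from SD and SD+ino was 0.27 ± 0.21 (95% confidence interval -0.20 to 0.73, adjusted p = 0.538) on the mean over times. On the mean of 15 and 30 min the difference was 0.83 and passed (adjusted p = 0.0104), and on the mean of 120 and 240 min it was -0.45 (adjusted p = 0.804).

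At 15 min alone, 2 members rose and 5 fell in LIVWHM, with 37.1% of all genes tested passing. SER2 (2.51 ± 0.17) and THR4 (0.62 ± 0.16) were higher, and SER33, SHM2, SER1, HOM3 and HOM2 lower. After quantile normalization 5 members and 5.04% of all genes tested passed, without THR4 (0.48, adjusted p = 0.384) and HOM2 (-0.75, adjusted p = 0.195). The SER2 value rests on 1 array, at 1.77, while the other times in LIVWHM lay between -0.49 and -0.05, and on the mean over times SER2 differed by 0.13 ± 0.19 (adjusted p = 0.757). GLY1 (0.65 ± 0.19, adjusted p = 0.0617), HOM3 (-0.59 ± 0.19, adjusted p = 0.0888) and HOM2 (-0.17 ± 0.19, adjusted p = 0.674) did not pass on the mean over times.

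In ARNCQGKPSDEFTY, 0 members passed against SD and SD+ino on the mean over times, where 3.64% of all genes tested passed in limma. An unadjusted p below 0.05 was reached by 5 members and by 911 of the 5164 genes tested. SER33 measured 3.66, 3.59, 2.52, 1.39 and 1.60 and SHM2 3.07, 3.79, 2.99, 1.88 and 1.97 in this medium, all above t = 0, in a medium whose list includes serine (S) and glycine (G). SER33 differed from SD and SD+ino by -0.24 (95% confidence interval -0.61 to 0.14) and SER3 by -0.64 (-1.11 to -0.17, adjusted p = 0.13). HOM3 had its highest value of the series here, 3.18 at 15 min, with a difference of 0.57 ± 0.19 (adjusted p = 0.122), and HOM2 had one of 0.59 ± 0.19 (adjusted p = 0.122).

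Single times in ARNCQGKPSDEFTY, chosen after the data were seen, gave calls that the mean did not. At 15 min alone, 5 members were higher than in SD and SD+ino and 1 was lower, where 30.4% of all genes tested passed. HOM3 (0.82 ± 0.14, adjusted p = 0.00207), THR4 (0.76 ± 0.16), HOM2 (0.72 ± 0.18), GLY1 (0.67 ± 0.15) and SHM2 (0.62 ± 0.16) were higher, and SER33 (-0.58 ± 0.20, adjusted p = 0.0455) was lower. After quantile normalization 0 members passed at 15 min in limma (lowest adjusted p = 0.241, HOM3), with 1.05% of all genes tested. SER33 was -0.26 without SD+ino (adjusted p = 0.252), and it also missed the threshold with each array centred on its median, with trend and robust, with no inositol term, and without any 1 ethanol culture, Sgal or Sgal+ino. At 60 min alone, 2 were higher, HOM2 (1.07 ± 0.23) and GLY1 (0.77 ± 0.21), and SER3 was lower (-0.96 ± 0.27, adjusted p = 0.0425), where 14.4% passed. Of these 3 calls, HOM2 alone was left without SD+ino or any 1 ethanol culture, and SER3 alone without SD. SER3 missed the threshold also without Sgal or Sgal+ino, and quantile normalization ended the calls of SER3 (-0.37, adjusted p = 0.465) and GLY1 (0.41, adjusted p = 0.118).

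Set directly against ARNCQGKPSDEFTY, LIVWHM had 1 member higher and 4 lower, where 6% of all genes tested passed. SHM2 (-4.27 ± 0.21, adjusted p = 1.68e-07), SER33 (-2.74 ± 0.19, adjusted p = 3.2e-06), HOM3 (-1.16 ± 0.21, adjusted p = 0.00439) and SER1 (-1.09 ± 0.21, adjusted p = 0.00628) were lower. With additive terms the call of SHM2 alone was left. SER3 was higher by 0.91 ± 0.24 at an adjusted p of 0.0465, close to the threshold. With each array centred on its median it was 0.88 (adjusted p = 0.0622), and it also missed the threshold without SEtOH, SEtOH+ino, Sgal or Sgal+ino (highest adjusted p = 0.0714). These are single cultures, so no spread within either medium was measured.

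**Figure D2:**
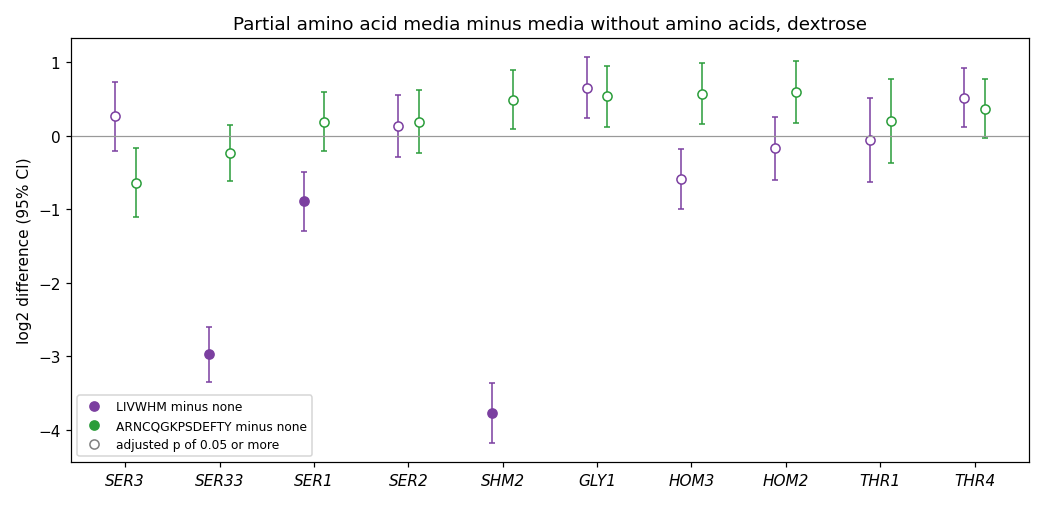
Differences in log2 ratio (y axis, with 95% confidence intervals) between the partial amino acid media and SD and SD+ino for the 10 genes, on the mean over 5 times. Filled points passed at an adjusted p below 0.05 in limma. SHM2 and SER33 lie at -3.77 and -2.97 for LIVWHM, while SER3 lies at 0.27, and no point for ARNCQGKPSDEFTY is filled.

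The difference between the ratios of SER3 and SER33 was taken in each culture. SER3 minus SER33 averaged 3.25 in LIVWHM, with values from 2.34 to 3.81 over the 5 times, and its means lay between -0.66 and 0.62 in the other 12 media. Over all 13 cultures the mean was 0.28 ± 0.99 (SD, n = 13), positive in 8 (exact sign-flip permutation test, 2-sided p = 0.400, adjusted over 3 tests 0.400). As a further feature in the limma fit, it was higher in LIVWHM than in SD and SD+ino by 3.24 ± 0.23 (adjusted p = 3.18e-06) and higher than in ARNCQGKPSDEFTY by 3.64 ± 0.26 (adjusted p = 3.05e-06). The LIVWHM values of 3.82 for SER3 and 0.01 for SER33 at 15 min show that the probes can read apart by that much. How far each takes up transcripts of its paralog was not tested.

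Outside LIVWHM the paralogs were closer on the mean over times, with SER3 minus SER33 at -0.40 in ARNCQGKPSDEFTY. At single times it reached -2.04 in SD at 30 min and -1.67 in SEtOH at 240 min. In the other direction it reached 1.05 in SD+ino at 120 min and 1.04 in SD+aa at 15 min. The means of SD and SD+ino had opposite signs, at -0.63 and 0.21. SER3 minus SER33 averaged -0.19 ± 0.46 in the 6 cultures without amino acids and 0.39 ± 0.16 in the 5 with all of them (SD), and the ranges overlapped, with -0.66 to 0.46 against 0.20 to 0.62. The exact permutation p was 0.0433 (2-sided, smallest possible 0.00433) and the value adjusted over the 3 tests 0.13, so the difference did not pass the correction. Within ethanol and galactose the mean was -0.18 ± 0.48 without amino acids and 0.37 ± 0.18 with all of them (SD, n = 4 each, exact permutation p = 0.114, adjusted 0.171). In dextrose the limma fit gave -0.87 ± 0.23 for this difference on amino acid removal (adjusted p = 0.0143), -0.57 without SD (adjusted p = 0.151) and -0.65 with no inositol term (adjusted p = 0.188). It was 0.00064 on the mean of 120 and 240 min (adjusted p = 1).

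**Figure D3:**
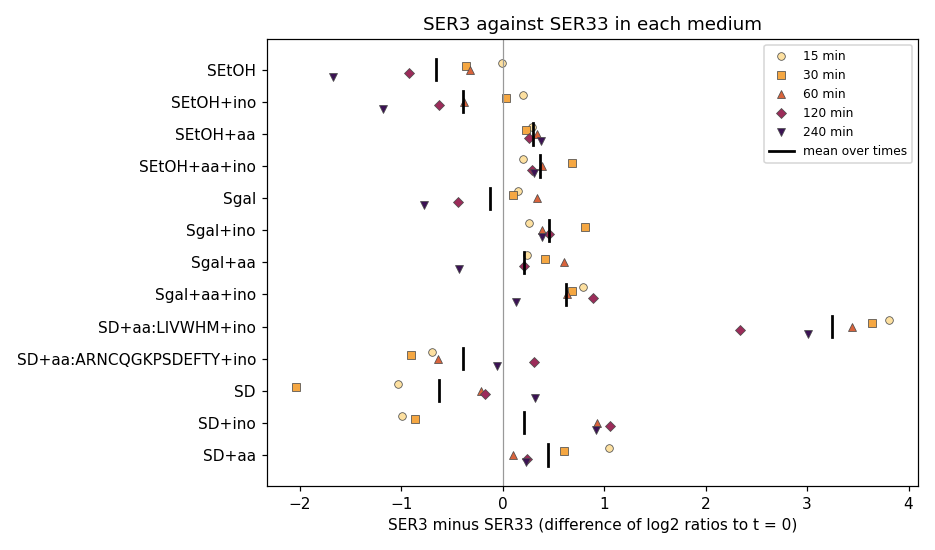
SER3 minus SER33 (x axis, difference of log2 ratios to t = 0) in each of the 13 media (rows), with 1 symbol per time and a black bar for the mean over times. The LIVWHM points lie from 2.34 to 3.81, apart from all other media, and in SEtOH the 240 min point is lowest.

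In ethanol and galactose, removing amino acids gave few calls, among the members and among all genes tested. In the ethanol contrast 4 members and 401 of the 5164 genes tested had an unadjusted p below 0.05 in limma. In ethanol SER33 rose by 0.86 ± 0.14 (adjusted p = 0.00922), the only 1 of the 10 members to pass, where 0.678% of all genes tested passed. Leaving out any 1 of the 4 ethanol cultures ended that call, with values from 0.78 to 0.94 and adjusted p up to 0.211. SER33 measured 0.18, 0.30, 0.24, 0.63 and 1.49 in SEtOH and 0.14, 0.21, 0.19, 0.44 and 1.18 in SEtOH+ino, against 0.03, -0.13, -0.58, -0.63 and -0.55 in SEtOH+aa and 0.16, -0.24, -0.51, -0.70 and -0.43 in SEtOH+aa+ino. From 30 min on the media without amino acids lay above those with all of them. At 240 min alone, 1 member passed, SER33, by 1.83 ± 0.25 (adjusted p = 0.0141), where 0.641% of all genes tested passed. Leaving out any ethanol culture (1.59 to 2.06) or quantile normalization (1.10, adjusted p = 0.0747) ended that call too.

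SER3 did not show this course. It stayed between -0.41 and 0.44 in all 20 ethanol combinations of culture and time, and amino acid removal gave a difference of -0.00 (95% confidence interval -0.37 to 0.37, adjusted p = 0.999). SHM2 was at 1.17 in SEtOH and 1.06 in SEtOH+ino at 240 min, against 0.07 in SEtOH+aa and -0.41 in SEtOH+aa+ino, after values between -0.93 and -0.75 at 60 and 120 min in the media without amino acids. Its difference over all times was 0.46 ± 0.15 (adjusted p = 0.413), and that of HOM3 0.42 ± 0.15 (adjusted p = 0.494).

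In galactose 0 members passed in limma, where 0.116% of all genes tested passed. An unadjusted p below 0.05 was reached by 3 members and by 1005 of the 5164 genes tested. THR1 had the largest member difference, 0.85 ± 0.21 (adjusted p = 0.08), with means of -0.54 in Sgal and -0.17 in Sgal+ino, against -1.13 in Sgal+aa and -1.28 in Sgal+aa+ino. It passed with eBayes run with trend and robust (adjusted p = 0.0426) and without Sgal+aa (1.03, adjusted p = 0.038). SER33 differed by 0.48 ± 0.14 (adjusted p = 0.103). At 240 min alone, 0 members passed and 0.253% of all genes tested did.

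**Figure D4:**
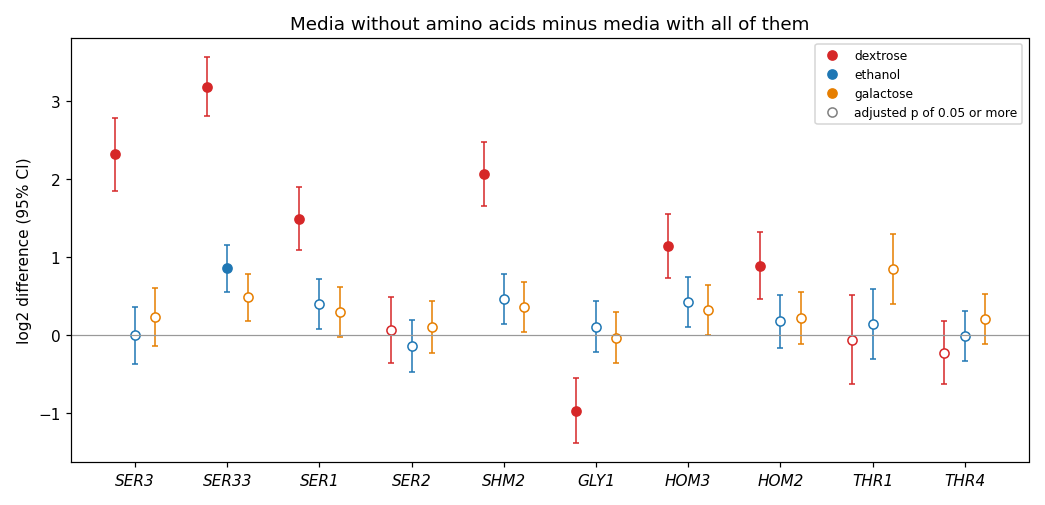
Differences in log2 ratio (y axis, with 95% confidence intervals) between media without amino acids and media with all of them in dextrose, ethanol and galactose for the 10 genes, on the mean over 5 times. Filled points passed at an adjusted p below 0.05 in limma, 7 in dextrose, 1 in ethanol (SER33, 0.86) and 0 in galactose.

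The effect of amino acid removal itself was compared between carbon sources. It was larger in dextrose than in ethanol for 4 members and more negative for 1, where 19.3% of all genes tested passed. The differences of effects were 2.33 ± 0.22 for SER33, 2.32 ± 0.27 for SER3, 1.61 ± 0.24 for SHM2, 1.10 ± 0.24 for SER1 and -1.08 ± 0.24 for GLY1. Without SEtOH+ino the calls of SER1 (0.98, adjusted p = 0.057) and GLY1 (-1.02, adjusted p = 0.0533) were lost, and quantile normalization ended that of GLY1 (-0.72). Against galactose the dextrose effect was larger for 5 members and more negative for 1, where 27.3% of all genes tested passed, with SER33 at 2.71 ± 0.22 and HOM3 at 0.82 ± 0.24. HOM3 lost its call without SD, SEtOH, SEtOH+ino or Sgal+ino, at 0.69 to 0.82. On the mean of 120 and 240 min, 1 member (SER3) passed in each of these comparisons. Over all settings the share of all genes tested that passed ran from 0.594% to 42.4% against ethanol and from 1.61% to 43.1% against galactose. Between ethanol and galactose 0 members and 0% of all genes tested passed in limma, with 1 member and 253 genes at an unadjusted p below 0.05. All of these contrasts rest on SD+aa as the only dextrose culture with all amino acids.

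The carbon source was then compared at a fixed amino acid supply. With all amino acids, ethanol had 0 members higher and 2 lower than dextrose, SHM2 (-0.80 ± 0.19) and GLY1 (-0.77 ± 0.19), where 43.1% of all genes tested passed. Galactose had 0 higher and 4 lower than dextrose, SHM2 (-1.36 ± 0.19), THR1 (-0.88 ± 0.26), SER2 (-0.66 ± 0.19) and SER3 (-0.62 ± 0.21), where 52.7% passed. After quantile normalization THR1 was 0.34 (adjusted p = 0.256). SER3 missed the threshold without Sgal+aa (-0.64) or Sgal+aa+ino (-0.61), and THR1 without Sgal+aa+ino (-0.74). In these comparisons the median of all genes was -0.09 in ethanol and -0.12 in galactose.

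Without amino acids, ethanol had 0 members higher and 7 lower than dextrose, where 33.4% of all genes tested passed. SER3 was lower by 2.65 ± 0.17 (-2.65, adjusted p = 6.7e-07), SHM2 by 2.41 ± 0.15 (-2.41) and SER33 by 2.34 ± 0.14 (-2.34), and SER1, HOM2, SER2 (-0.58) and HOM3 (-0.48) also fell. Leaving out SD, SD+ino, SEtOH or SEtOH+ino ended the calls of SER2 and HOM3. Galactose had 1 member higher, GLY1 (0.73 ± 0.15), and 7 lower than dextrose, where 46.9% passed. Of these SER33 (-3.08 ± 0.14), SHM2 (-3.07 ± 0.15) and SER3 (-2.70 ± 0.17) had the largest differences, and SER2 lost its call without Sgal (-0.42).

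Ethanol set against galactose, over both amino acid supplies, had 3 members higher and 1 lower, where 15.6% of all genes tested passed. HOM3 was higher by 0.64 ± 0.10 (adjusted p = 0.00342), SHM2 by 0.61 ± 0.10 and SER33 by 0.56 ± 0.10, and GLY1 was lower (-0.49 ± 0.11). The call of GLY1 was lost without SEtOH (-0.46), SEtOH+ino (-0.51) or SEtOH+aa+ino (-0.45), and with additive terms none of the 4 passed (lowest adjusted p = 0.0584, HOM3). HOM3 ran from 0.05 to 1.23 in the 4 ethanol media and from -0.77 to 0.57 in the 4 galactose media, and the culture means did not overlap, at 0.33 to 0.79 against -0.40 to 0.14.

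**Figure D5:**
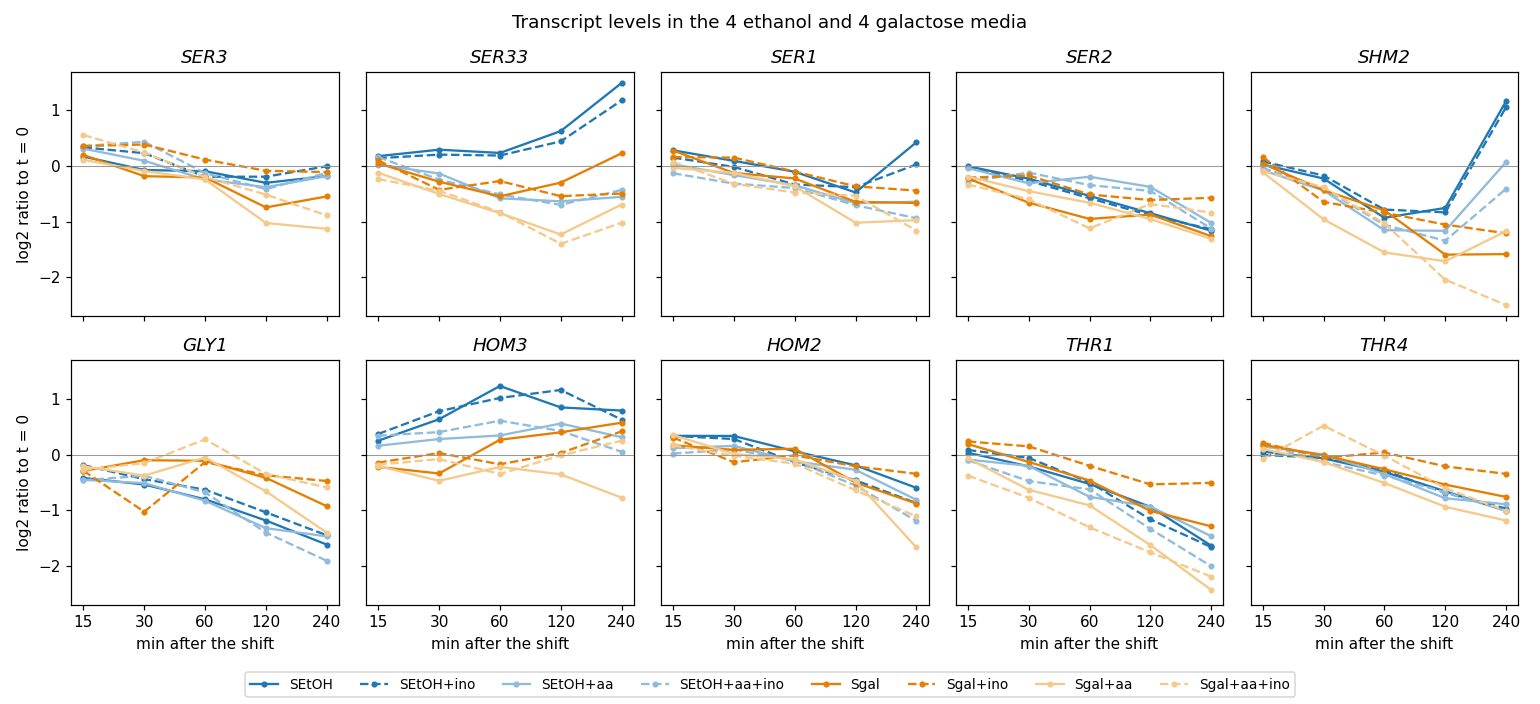
Log2 ratios to t = 0 (y axis) at 15, 30, 60, 120 and 240 min after the shift (x axis, evenly spaced) for the 10 genes in the 4 ethanol (blue) and 4 galactose (orange) media, 1 culture each. Pale lines have all amino acids and dashed lines have inositol. SER33 and SHM2 end highest in SEtOH and SEtOH+ino, and THR1 ends between -2.43 and -0.51 in all 8 media.

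Relative to t = 0 most members passed in these carbon sources, as did most of all genes tested, so the member counts lie near that share. Most of the members that passed were lower. Of all genes called, 42.5% were higher in ethanol and 43% in galactose. In ethanol 1 member was higher, HOM3 (0.56 ± 0.07), and 7 were lower, where 78.4% of all genes tested passed, with GLY1 (-0.89 ± 0.07) and THR1 (-0.73 ± 0.10) the lowest. In galactose 0 were higher and 9 lower, where 81.8% passed, with SHM2 (-0.97 ± 0.07), THR1 (-0.78 ± 0.10) and SER2 (-0.66 ± 0.08) the lowest. HOM3, at -0.08, was the member that did not pass there. The median of all genes was -0.11 in ethanol and -0.13 in galactose, and with each array centred the calls of SER1 (-0.14) and HOM2 (-0.10) in ethanol and of SER3 (-0.12) and HOM2 (-0.17) in galactose were lost. Of the 13 fits without 1 culture, 2 ended the call of SER1 and 6 that of HOM2 in ethanol. In galactose 8 ended that of SER3 and 1 that of HOM2. Between 15 and 240 min 2 members rose and 7 fell in ethanol, where 70.9% of all genes tested passed, and 0 rose and 9 fell in galactose, where 74.7% passed. THR1 fell by 1.67 ± 0.15 in ethanol and by 1.60 ± 0.15 in galactose over that interval. The members that rose in ethanol were SER33 (0.30 ± 0.12) and SHM2 (0.47 ± 0.17). Of the 13 fits without 1 culture, 5 ended the call of SER33 and 6 that of SHM2. Among them were those without SEtOH (0.32 and 0.55) and without SEtOH+ino (0.27 and 0.39). Over the 13 fits SER33 ran from 0.19 to 0.41. After quantile normalization SER33 was -0.038, with the sign turned.

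Inositol removal moved 0 members and 0% of all genes tested in limma, with 1 member and 360 genes at an unadjusted p below 0.05. That member was SER3, at -0.34 ± 0.11 (adjusted p = 0.661).

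Of the other 21 genes of the routes, 10 rose and 2 fell on amino acid removal in dextrose, where 26.8% of all genes tested passed. The largest differences were those of MET2 (3.83 ± 0.21), homoserine acetyltransferase of the methionine branch, GCV1 (2.33 ± 0.26) and GCV2 (1.76 ± 0.25), subunits of the mitochondrial glycine cleavage complex, and ADE3 (1.78 ± 0.21), a cytosolic folate enzyme. HOM6, homoserine dehydrogenase, rose by 1.17 ± 0.18, beside HOM3 and HOM2. MIS1, the mitochondrial counterpart of ADE3, fell by 1.41 ± 0.20, and GNP1, an amino acid permease gene, fell by 1.03 ± 0.18, both named after their values were seen. In ethanol 2 of 21 rose, MET2 (2.86 ± 0.17) and CYS4 (1.06 ± 0.14), cystathionine beta-synthase, and in galactose 1 rose, MET2 (1.44 ± 0.17), where 0.678% of all genes tested passed in ethanol and 0.116% in galactose.

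In LIVWHM against SD and SD+ino, 3 of the 21 rose and 8 fell, where 7.24% of all genes tested passed. MET2 (-4.37 ± 0.21), GCV1 (-3.38 ± 0.26) and GCV2 (-3.11 ± 0.25) were lower, beside SHM2 and SER33, and AGP1 (3.42 ± 0.31), a broad amino acid permease gene, was higher. MET2 measured -1.26, -1.67, -2.07, -1.02 and -1.72 in LIVWHM, against 4.97, 4.12, 3.02, 2.96 and 2.23 in SD. In ARNCQGKPSDEFTY against SD and SD+ino 2 rose, CHA1 (1.05 ± 0.20), the catabolic serine and threonine deaminase, and GNP1 (0.83 ± 0.18), where 3.64% of all genes tested passed. CHA1 reached 1.40 and 1.53 at 15 and 30 min there, against -0.73 to -0.11 in SD and SD+ino at those times. SHM1, the mitochondrial counterpart of SHM2, differed by -0.21 ± 0.19 on amino acid removal in dextrose (adjusted p = 0.469). Transcripts of GCN4, the activator of amino acid synthesis genes whose control is largely translational, did not pass on amino acid removal in any of the 3 carbon sources.

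Over the 65 combinations of culture and time, the genes outside the members whose log2 ratios were most like SER3 were the arginine synthesis genes ARG1 (Pearson r = 0.97), ARG8 (0.91) and ARG4 (0.91). Those most like SER33 were MET10 (0.96), a sulfite reductase subunit gene, MET22 (0.96) and ADE3 (0.95). SHM2 was followed most closely by SPC3 (0.99), a signal peptidase subunit gene, MTD1 (0.96), a cytosolic folate dehydrogenase gene, and ADE17 (0.96), of purine synthesis, and THR1 by HTS1 (0.94), SPE3 (0.94) and FSF1 (0.92). These correlations describe 5217 genes over the same 65 points. The points share cultures, t = 0 cells and, within a culture, time order. Among the members, SER33 correlated with SER1 (0.90) and SHM2 (0.90) more than with SER3 (0.70), and THR1 with THR4 (0.83). Within the dextrose media alone SER3 and SER33 correlated at 0.46, and within ethanol and galactose at 0.39, where SER33 with SER1 gave 0.92 and 0.62 and SER33 with SHM2 gave 0.87 and 0.75.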

How the data were processed

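The authors deposited 1 table of ratios for 73 two-colour arrays, with no dye swap, and its values were read as log10 ratios and multiplied by 3.32 to give log2 ratios. Array medians were -0.17 to 0.06 (log2), and no further normalization was applied. Of 6256 probes, 5568 had 1 gene symbol and probes of a gene were averaged. Repeat arrays were averaged; for SEtOH+aa the titles (60 and 120 min) were followed where the study's text differs.

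Culture means over the 5 times were fitted in limma 3.58.1 (R 4.3.3; lmFit, eBayes) with 8 classes of carbon source and amino acids plus inositol, on 13 cultures (4 residual degrees of freedom), for genes with values at 3 or more times in every culture. P values were adjusted by Benjamini-Hochberg over all genes tested, with a threshold of 0.05. The same fit was made at single times and on 240 minus 15 min. The fits were tested on simulated data. SER3 minus SER33 was tested by exact permutation over cultures (scipy 1.17.1).

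Named were all 10 members, called genes among the other 21 with the 4 largest differences, CHA1, GCN4, HOM6, SHM1 and MET2 where they bear, 3 most alike genes outside the members with 60 or more values for each of 4 members, and GAL1, GAL7, GAL10, INO1 and ADE2 as checks. Members and lists were chosen with earlier results of these data known. Signal intensities were not used here. The number of cultures limits the precision of the tests. Replicates within a medium were repeat arrays, so p-values measure the spread between cultures of different media. Alternatives covered scaling, filters, repeats, the fit, the times and each culture left out.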

Additional observations from a re-analysis of the deposited data

Results flagged for a closer look

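THR1 averaged -0.91 over time in SEtOH+aa+ino, apart from the other 3 ethanol cultures (-0.69 to -0.66). THR4 averaged -0.37 in SEtOH+aa, apart from the other 3 ethanol cultures (-0.40), a small gap in a narrow range. These were 2 of 30 sets of cultures tested, and chance sets apart about 1 in 20.

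The effect of amino acid removal differed by the test of the difference between dextrose and ethanol for SER3 (2.32), SER33 (2.33), SER1 (1.10), SHM2 (1.61) and GLY1 (-1.08). It differed between dextrose and galactose for SER3 (2.08), SER33 (2.71), SER1 (1.20), SHM2 (1.71), GLY1 (-0.93) and HOM3 (0.82). All 11 values rest on SD+aa as the 1 dextrose culture with all amino acids.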

How the results depend on the processing

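Each culture was a single flask, so no spread within a medium was measured, and the number of cultures limits what can be told apart. No paired analysis was possible because no replicate numbers are shared between media, each of which was 1 culture. Media with and without inositol were matched by the fit's inositol term, and the fit without it is among the alternatives. The promoter motif search was not run because no sequence was used here. The causes were not tested, except that genes with a missing array, SER33, SER2 and GLY1, are not tested among genes with a value on every array.

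Quantile normalization turned the sign of THR1 (0.89) and THR4 (0.16) on amino acid removal in dextrose, GLY1 at 15 min there (0.21), SER3 in ethanol (0.016), SER33 in ARNCQGKPSDEFTY (0.26), THR1 in galactose with all amino acids (0.34), and against t = 0 HOM2 in ethanol (0.034) and SER3 in galactose (0.010). For 240 minus 15 min it turned SER3 (1.17), SER1 (0.23), SHM2 (0.65), HOM3 (0.14) and HOM2 (0.088) in dextrose, SER33 (-0.038) and GLY1 (0.045) in ethanol and GLY1 (0.12) in galactose. Members that passed became 6 for LIVWHM against none (10.7% of all genes, beside 7.24%), 3 for ARNCQGKPSDEFTY against none (10.5%, beside 3.64%), and there 0 at 15 min (1.05%, beside 30.4%) and 6 at 60 min (30.9%, beside 14.4%). They became 4 at 15 min (18.9%, beside 55.2%) and 8 at 240 min (24.2%, beside 0.739%) for dextrose removal, and 0 at 240 min in ethanol (0.311%, beside 0.641%).

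On the mean of 15 and 30 min SER2 turned on dextrose removal (-0.042), in galactose against dextrose with all amino acids (0.017), and without amino acids in ethanol (0.32) and galactose (0.14). GLY1 turned in ethanol with all amino acids (0.094), and against t = 0 HOM2 (0.21) and THR4 (0.018) turned in ethanol and SER3 (0.20), SER1 (0.0099), HOM2 (0.12) and THR4 (0.092) in galactose. SER3 minus SER33 in ARNCQGKPSDEFTY against none became 0.24. The members that passed became 0 for ethanol removal, 8 for its difference from dextrose, 8 for LIVWHM and 4 for ARNCQGKPSDEFTY against none, 1 for ethanol and 1 for galactose against dextrose with all amino acids, 1 for ethanol against galactose and 4 for ethanol against t = 0. The share of all genes tested that passed moved with the settings too, so these counts are not results about the members alone. Over all settings it ran from 0.141% to 0.91% for ethanol removal and from 0.594% to 42.4% for dextrose minus ethanol. It ran from 2.21% to 25.4% for LIVWHM and from 0.232% to 21.7% for ARNCQGKPSDEFTY against none. For ethanol against galactose it ran from 2.7% to 28.1%, and for ethanol against t = 0 from 60% to 81.6%.

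On the mean of 120 and 240 min THR1 (0.42) and THR4 (0.15) turned on dextrose removal, SER3 on ethanol removal (0.11) and in LIVWHM (-0.45), and THR1 (0.10) and THR4 (0.013) against t = 0 in dextrose. SER3 minus SER33 became 0.00064 on dextrose removal and -0.47 for no amino acids against all (unadjusted exact permutation p = 0.26). The members that passed became 3 for dextrose removal, 1 for its difference from ethanol, 1 from galactose, 2 for LIVWHM against ARNCQGKPSDEFTY, and 4 for ethanol and 8 for galactose against dextrose with all amino acids. Over all settings the share of all genes tested that passed ran from 1.71% to 51.7% for dextrose removal. For LIVWHM against ARNCQGKPSDEFTY it ran from 1.96% to 19.9%. Against dextrose with all amino acids it ran from 10.9% to 49.6% for ethanol and from 16.1% to 56.7% for galactose. These counts too are not results about the members alone. On the mean of 30 to 240 min, chosen after seeing the data, THR1 (0.023), SER3 in ethanol (0.017) and HOM2 in LIVWHM (0.023) turned, and 2 members passed for LIVWHM against ARNCQGKPSDEFTY. SER3 minus SER33 without amino acids against all was -0.91 at 30, -0.29 at 60, -0.49 at 120 and -0.46 at 240 min alone, with unadjusted exact permutation p from 0.0519 to 0.372.

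Without an inositol term THR1 on dextrose removal was 0.0083 and SER3 minus SER33 was -0.65. With additive terms 1 member passed for LIVWHM against none and 1 against ARNCQGKPSDEFTY, 0 for ethanol against galactose, and SER33 in ARNCQGKPSDEFTY was 0.24. The ranges of the share of all genes tested are given above for these comparisons. Additive terms take the effect of amino acid removal as the same in each carbon source. That effect differed between dextrose and ethanol for SER33 (2.33) and SER3 (2.32), so the calls lost with additive terms rest on a fit without that difference. With trend and robust 1 member passed for galactose removal and SER3 minus SER33 on ethanol removal (-0.86) passed. SER3 on ethanol removal was 0.029 with arrays centred and 0.013 with the first repeat array. With genes on every array the members that passed became 0 for ethanol removal, 0 for it at 240 min, 1 for dextrose removal at 240 min, 1 for ethanol against dextrose with all amino acids, 5 for galactose against dextrose without, and 2 for ethanol against galactose. Over all settings the share of all genes tested that passed ran from 0% to 9.41% for galactose removal. At 240 min it ran from 0.175% to 1.03% for ethanol removal and from 0.311% to 24.2% for dextrose removal. For galactose against dextrose without amino acids it ran from 32.6% to 59%.

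Leaving out 1 culture at a time, the members that passed ranged from 0 to 1 for ethanol and for galactose removal, at 240 min too, 0 to 2 for dextrose removal at 240 min, 3 to 6 for dextrose minus ethanol, 2 to 5 for LIVWHM against none, 1 to 3 for ARNCQGKPSDEFTY against none at 60 min, and for 240 minus 15 min 3 to 10 in dextrose and 5 to 9 in ethanol. THR1 on dextrose removal ranged from -0.33 to 0.34, SER3 on ethanol removal from -0.15 to 0.14, HOM2 in LIVWHM from -0.30 to 0.015, and SER3 minus SER33 from -1.07 to -0.57 on dextrose removal and from -0.71 to -0.48 for no amino acids against all. Over all settings the share of all genes tested that passed ran from 5.95% to 30.9% for ARNCQGKPSDEFTY against none at 60 min. For 240 minus 15 min it ran from 24.7% to 60.8% in dextrose and from 54.2% to 75.7% in ethanol.

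Of all genes called, the share higher was 45.5% in ethanol against dextrose without amino acids and 61.9% with arrays centred, and 48.8% in galactose against dextrose without amino acids and 59% centred. For ARNCQGKPSDEFTY against none at 15 min it was 49.7%, and 60.7% centred. Quantile normalization moved it to 54.3% for LIVWHM against none, beside 41.2%, and to 47.4% for LIVWHM against ARNCQGKPSDEFTY, beside 35.5%. It also moved it to 50% for galactose removal, beside 66.7%, to 47.9% for dextrose removal at 240 min, beside 86.8%, to 100% for ethanol removal at 240 min, beside 87.9%, and to 39.4% for LIVWHM against none at 15 min, beside 56.8%.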
